A study of Mus musculus with 16 samples.

Results

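Transcripts of macrophages and other myeloid cells were followed in mouse heart ventricle after pressure overload, in 40 genes listed by name. Members were the non-control array probes that carried one of these gene names or an older synonym (Lyzs for Lyz2, Lzp-s for Lyz1, Emr1 for Adgre1). Only probes whose heart signal stood well above background on 4 or more of the 16 arrays were used. The 40 genes had 66 probes, of which 40 passed, and these measured 31 genes among 11058 features tested in the whole series; 22 of the 31 were well above background on all 16 arrays. The 9 genes that did not pass were Laptm5, Msr1, Gpnmb, Pld4, Cx3cr1, Ncf1, Cd53, Itgam and Itgb2. A gene that is dim in sham hearts passes only if banded hearts show it, so counts over the 22 are given beside the main counts over the 31.

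Ventricles came from 129Sv mice that were wild type or CHIP-/-, lacking the product of Stub1, a ubiquitin ligase that works with heat shock chaperones. Mice of both genotypes underwent trans-aortic banding (TAB) or a sham procedure. Banding narrows the aorta and raises the load on the left ventricle; RNA was taken 1 week after surgery. Each of the 4 groups had 4 biological replicates, 1 array each. The heart RNA was labelled with Cy5 and read against a Cy3-labelled reference RNA from whole neonatal mice of mixed 129Sv and C57BL/6 background, so values are log2 ratios, heart over reference, and say nothing on how the level of one gene compares with that of another. Age and sex are not among the labels used here, CHIP was absent by genotype and not through a cell-type-specific deletion named in the labels, and the RNA came from whole ventricle with all its cell types. In such bulk RNA a change in the number of macrophages and a change in RNA per macrophage cannot be told apart.

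Macrophages are the main immune cells of the heart. Resident cells sit between the muscle fibres from birth, and monocytes that carry the receptor Ccr2 enter from the blood after injury or a rise in load, drawn by chemokines such as Ccl2. Both kinds engulf dead cells and debris, digest them in lysosomes, sense antibody and damaged lipids through receptors that signal over the adaptors Tyrobp and Fcer1g, and make the C1q complement protein. Their shared identity depends on the growth factor receptor Csf1r and on transcription factors of the ETS family, PU.1 above all, which bind purine-rich sites near the starts of myeloid genes.

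Promoter windows of 300 bases, from 250 before to 50 after the start, were found by symbol among RefSeq sequences (build GRCm38.p6) for 28 of the 40 genes, 21 of them measured. Some of the windows that hold a match to a short sequence were picked. That each picked window holds a match is thus a result of the choice. The first 5 hold AGGAAGT or its reverse complement ACTTCCT, an ETS-type sequence, in capitals. Ccl6 is among them as a gene whose responses gave a difference near 0. The window of Trem2 and the one shown for Ms4a7 (its other window lacks a match) hold TGANTCA in capitals, with any base at N. This pattern reads the same on both strands and is looser than the AP-1 consensus, which has C or G at N. The capitals read TGATTCA in Ms4a7 and TGAATCA in Trem2, so neither matches that consensus. Each sequence is written 5′ to 3′ on the strand of its gene.
Ctss, chr3:95526536-95526835, plus strand: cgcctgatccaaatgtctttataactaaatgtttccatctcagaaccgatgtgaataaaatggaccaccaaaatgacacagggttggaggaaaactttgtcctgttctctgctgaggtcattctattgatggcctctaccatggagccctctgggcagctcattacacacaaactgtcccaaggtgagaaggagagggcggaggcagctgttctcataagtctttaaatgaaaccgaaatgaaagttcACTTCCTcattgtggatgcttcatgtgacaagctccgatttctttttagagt
Lyz2, chr10:117282223-117282522, minus strand: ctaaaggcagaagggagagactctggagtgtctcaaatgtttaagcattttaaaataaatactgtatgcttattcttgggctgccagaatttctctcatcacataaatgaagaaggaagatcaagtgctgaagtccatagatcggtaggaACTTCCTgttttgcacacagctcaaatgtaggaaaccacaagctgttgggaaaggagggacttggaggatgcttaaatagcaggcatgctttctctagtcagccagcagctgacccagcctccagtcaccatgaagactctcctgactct
Lyz1, chr10:117292819-117293118, minus strand: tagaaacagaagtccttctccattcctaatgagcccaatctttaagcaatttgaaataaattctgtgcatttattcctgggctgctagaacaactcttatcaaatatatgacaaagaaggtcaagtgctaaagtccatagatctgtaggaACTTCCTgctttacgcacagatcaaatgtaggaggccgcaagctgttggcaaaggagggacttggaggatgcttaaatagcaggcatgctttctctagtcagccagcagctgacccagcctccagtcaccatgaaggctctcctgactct
C1qc, chr4:136892865-136893164, minus strand: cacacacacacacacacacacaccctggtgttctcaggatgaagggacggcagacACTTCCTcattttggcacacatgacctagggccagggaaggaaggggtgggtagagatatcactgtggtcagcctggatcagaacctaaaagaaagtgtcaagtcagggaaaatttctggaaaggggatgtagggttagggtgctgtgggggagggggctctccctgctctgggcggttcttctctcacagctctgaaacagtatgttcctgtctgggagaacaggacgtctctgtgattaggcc
Ccl6, chr11:83593038-83593337, minus strand: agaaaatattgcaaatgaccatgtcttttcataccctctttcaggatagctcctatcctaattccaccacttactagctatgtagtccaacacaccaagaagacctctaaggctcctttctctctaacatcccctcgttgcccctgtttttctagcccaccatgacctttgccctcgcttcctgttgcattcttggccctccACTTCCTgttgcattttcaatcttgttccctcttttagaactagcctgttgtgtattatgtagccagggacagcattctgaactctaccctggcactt
Ms4a7, chr19:11334646-11334945, minus strand: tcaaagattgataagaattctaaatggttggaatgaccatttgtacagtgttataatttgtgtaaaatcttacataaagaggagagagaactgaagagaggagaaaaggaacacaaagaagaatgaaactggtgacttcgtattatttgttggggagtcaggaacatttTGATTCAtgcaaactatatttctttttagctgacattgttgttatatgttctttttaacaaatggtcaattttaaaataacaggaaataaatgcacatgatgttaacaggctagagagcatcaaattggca
Trem2, chr17:48346151-48346450, plus strand: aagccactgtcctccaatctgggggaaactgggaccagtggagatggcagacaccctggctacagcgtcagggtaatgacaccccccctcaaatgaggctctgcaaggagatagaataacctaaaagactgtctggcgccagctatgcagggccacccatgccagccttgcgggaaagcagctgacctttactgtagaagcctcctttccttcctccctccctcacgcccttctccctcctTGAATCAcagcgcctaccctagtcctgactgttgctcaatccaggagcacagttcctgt

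The capitals began 2 bases before the start in Ctss, 100 before it in both Lyz2 and Lyz1, 195 in C1qc, 48 in Ccl6, 81 in Ms4a7 and 9 in Trem2. The neighbouring lysozyme genes had the same base at 201 of 300 positions, compared without gaps. A set of 6 short sequences was searched on both strands, chosen with the values known, and a gene counted if any of its windows held a match. AGGAAGT was in 9 of the 28 members (32.1%: Lyz2, Lyz1, Ctss, Pld4, Ccl6, C1qb, C1qc, Ptprc and Cd53) and in 10.7% of 27025 genes. GAGGAA was in 14 of 28 members (50%) against 31.3% of genes, and GAGGAAGT, which overlaps both, was in 4 (14.3%) against 3.69%. TGANTCA, with any base at N, was in 6 (21.4%: Cd68, Gpnmb, Ccl9, Ms4a7, Trem2 and Cybb) against 8.97%. TATAAA was in 4 of 28 (14.3%) against 15.7%, and TTGCNNAA, a C/EBP-type sequence, in 4 (14.3%) against 12.2%. These are matches of letters in a window, with no measurement of binding.

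Of the spots on an array, 27% to 37.7% were well above background for heart RNA and 56.6% to 62.4% for the reference. Each of the 4 groups filled a slide of its own, so effects of slide and of group cannot be told apart. Stub1 was lower in CHIP-/- than in wild type by -1.70 after sham (SE 0.10, limma adjusted p = 2.09e-10) and by -1.33 after TAB (SE 0.10, adjusted p = 2.9e-08), and all 8 CHIP-/- arrays lay below all 8 wild-type arrays. Some sham arrays stood apart. Y-linked transcripts were well above background on 3 sham arrays (WT replicate 4, CHIP-/- replicates 2 and 4) and on no TAB array. Myl7, an atrial myosin light chain, was high on 3 others (WT replicates 1 and 3, CHIP-/- replicate 1; 1.89 to 3.82, against -1.99 to 0.17 on the other 13 arrays).

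TAB was compared with sham within each genotype, CHIP-/- with wild type after each operation, and the 2 responses to TAB with each other. Differences are given on the log2 scale, with SE for the standard error; each p is from limma with Benjamini-Hochberg adjustment over all 11058 features, and a gene is said to rise or to be higher where it is below 0.05. Nothing in the labels says how the biological replicates were obtained, and the p-values measure the spread between these arrays.

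Macrophage and myeloid genes rose with TAB in both genotypes. They were listed with earlier results of these data known. Their counts beside the shares of all features, here and below, are thus a description and no test. In wild type 23 of the 31 measured genes rose and none fell, with a median log2 difference of 0.42, against 18.7% of all features called higher and 17% called lower. In CHIP-/- 30 of 31 rose and none fell, with a median of 0.84, against 24% called higher and 23.2% called lower. The median over all features was 0.00 in wild type and -0.01 in CHIP-/-. Among the 22 genes well above background on all arrays, 19 rose in wild type (median 0.47) and 21 in CHIP-/- (median 0.84). All 4 TAB arrays lay above all 4 sham arrays for 22 of the 31 genes in wild type, where 16.5% of features did so, and for 29 in CHIP-/-, where 21.8% did; among the 22 bright genes they did for 18 and 21.

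Averaged over the 31 genes and set against the mean of the WT sham arrays, the WT sham arrays lay between -0.06 and 0.11 and the CHIP-/- sham arrays between -0.07 and 0.05. WT TAB arrays lay between 0.37 and 0.48, and CHIP-/- TAB arrays between 0.73 and 0.99. The sham groups overlapped, the WT TAB arrays lay above both, and the CHIP-/- TAB arrays lay above all others. WT sham replicate 4, one of the arrays with Y-linked transcripts, had the highest average of the sham arrays and lay above the WT sham mean for 25 of the 31 genes.

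**Figure D1:**
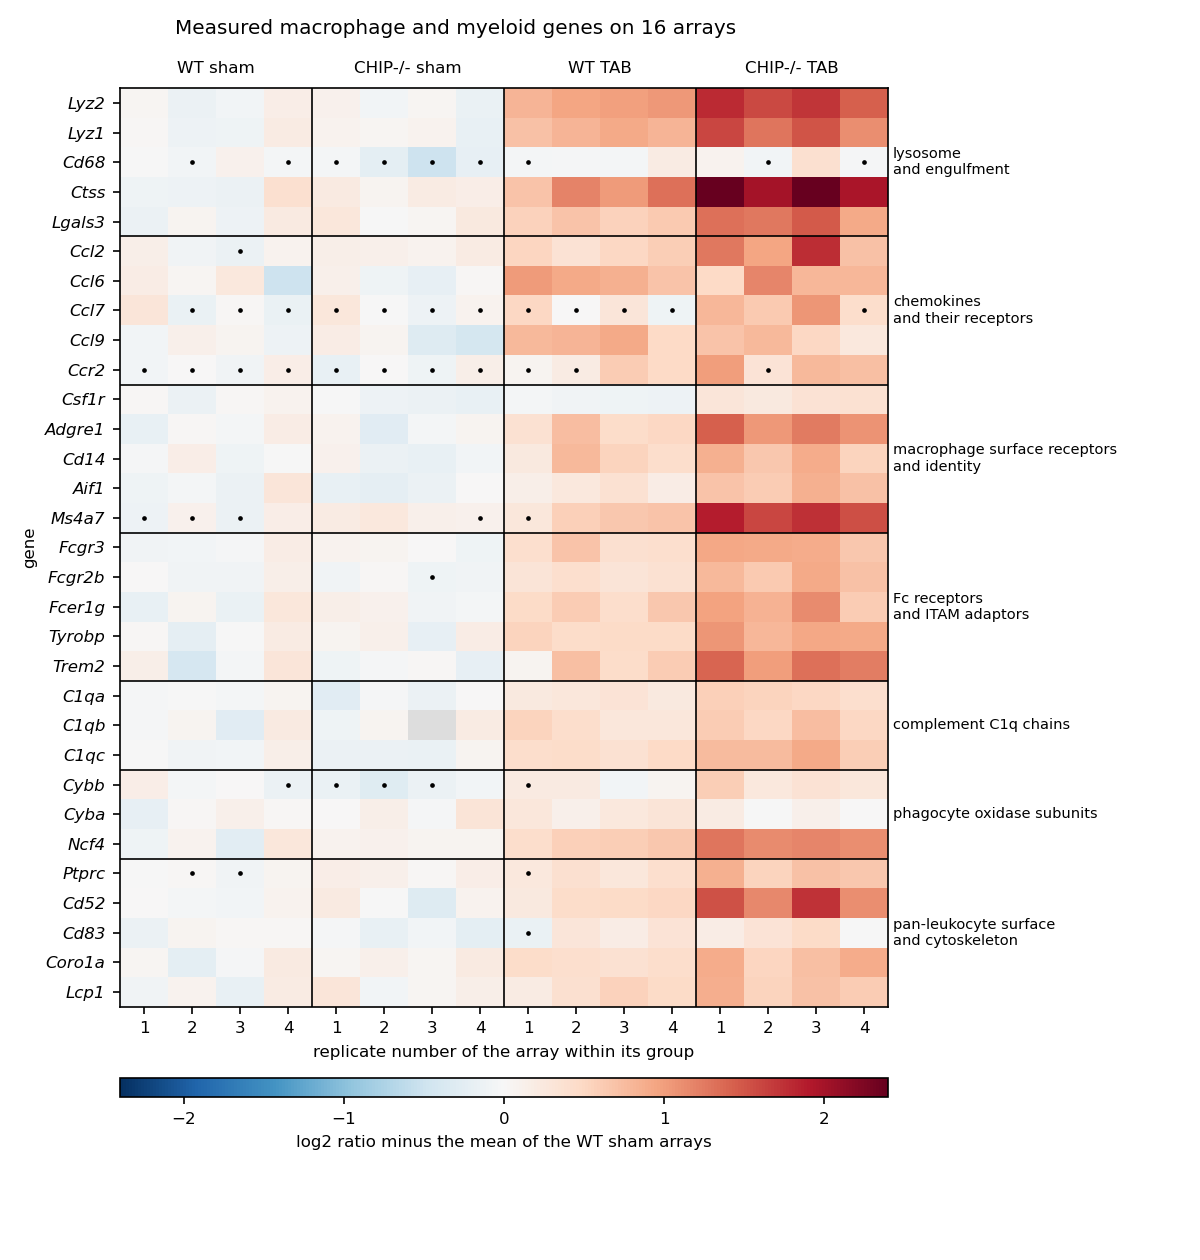
Log2 ratio of each of the 31 measured genes (rows, by role) on each of the 16 arrays (columns, by group and replicate), minus the mean of the WT sham arrays of that gene; a dot marks a value not well above background, and grey marks the 1 missing value. Sham columns stay near white, with array averages from -0.07 to 0.11; WT TAB columns average 0.37 to 0.48, and CHIP-/- TAB columns 0.73 to 0.99.

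Without load no difference between the genotypes passed the limma test: after sham 0 of 31 members were called in either direction, with differences from -0.24 (Cd68) to 0.17 (Ms4a7) and a median of 0.00. Over all features 4 passed (0.0362%), 2 higher and 2 lower. An unadjusted limma p under 0.05 was met by 1 of the 31 members and by 885 of the 11058 features. After TAB, 21 of 31 were higher in CHIP-/- than in wild type and none was lower, with a median of 0.39, against 5.25% of features called higher and 6.29% called lower. Among the 22 bright genes 16 were higher. All 4 CHIP-/- TAB arrays lay above all 4 WT TAB arrays for 19 of the 31 and 14 of the 22, where 6.27% of features did so.

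The response to TAB was larger in CHIP-/- than in wild type for 13 of 31 genes and smaller for none, by the interaction term of the same fit, against 2.83% of features with a larger and 2.6% with a smaller response. These were Lyz2, Lyz1, Ctss, Lgals3, Csf1r, Adgre1, Aif1, Ms4a7, Fcgr2b, Trem2, C1qc, Ncf4 and Cd52, and 11 of them were among the 22 bright genes. The median difference of responses over the 31 genes was 0.42. Lyz2, Csf1r, Aif1, Ms4a7 and Fcgr2b had further, dimmer probes that passed the filter. Among these dimmer probes the difference of responses passed for that of Ms4a7 only. The interaction count depended on which sham arrays were used: it was 3 of 31 without the 3 arrays with Y-linked transcripts (Lyz2, Ms4a7 and Cd52; median 0.42), where 98 of 10837 features passed. It was 11 of 30 without the 3 arrays with high Myl7 (median 0.45), where 441 of 10804 features passed, and 0 of 30 without both sets (median 0.43), where 4 of 10228 did. With median centring in place of loess the count was 5 (Ctss, Adgre1, Ms4a7, Trem2 and Cd52), and that of genes that rose in wild type 11, without Adgre1, Fcgr3, Fcgr2b, Tyrobp, Trem2, the C1q chains, Ptprc, Cd52, Coro1a and Lcp1; that setting moved the median of all features to -0.19 in wild type and -0.22 in CHIP-/-. It also cut the share of higher calls among all calls from 52.3% to 8.71% in wild type and from 50.9% to 12.2% in CHIP-/-, and raised it from 45.5% to 55.8% after TAB. Without both sets of sham arrays 12 of 30 genes rose in wild type. With the log ratios of the scanner software the medians were 0.79 in wild type and 1.35 in CHIP-/-.

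**Figure D2:**
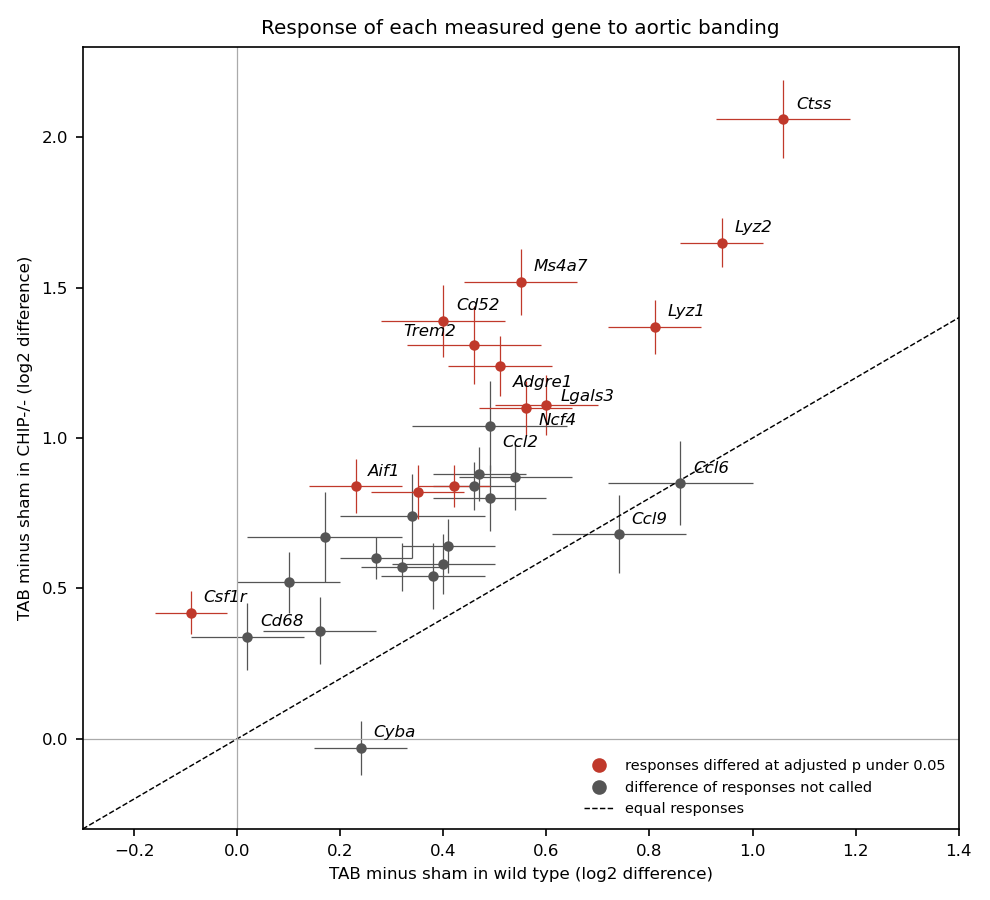
TAB minus sham in wild type (x axis) against TAB minus sham in CHIP-/- (y axis), as log2 differences of the 31 measured genes, with SE bars; red points are the 13 genes whose responses differed at an adjusted p under 0.05, and the dashed line marks equal responses. Most points lie above the line, Ccl6 and Ccl9 lie near it, and Cyba lies below it.

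Lysosome and engulfment genes held the largest rises. Ctss encodes cathepsin S, a lysosomal protease that also trims the invariant chain of MHC class II. Its log2 ratios were -0.51, -0.52, -0.55 and -0.02 in WT sham, -0.19, -0.34, -0.20 and -0.25 in CHIP-/- sham, 0.29, 0.79, 0.62 and 0.93 in WT TAB, and 2.05, 1.60, 2.05 and 1.56 in CHIP-/- TAB. The sham arrays lay below the WT TAB arrays, and these below the CHIP-/- TAB arrays, with no overlap. Ctss rose 2.08-fold in wild type (log2 SE 0.13, adjusted p = 1.7e-06) and 4.17-fold in CHIP-/- (log2 SE 0.13, adjusted p = 6.7e-11), and was 2.23-fold higher in CHIP-/- after TAB (adjusted p = 8.7e-06). Its responses differed by 1.00 (SE 0.18, adjusted p = 0.0031).

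Lyz2, the lysozyme gene of macrophages and neutrophils, read -0.33, -0.52, -0.43 and -0.21 in WT sham and -0.27, -0.44, -0.32 and -0.54 in CHIP-/- sham. It read 0.45, 0.58, 0.61 and 0.66 in WT TAB and 1.42, 1.22, 1.34 and 1.06 in CHIP-/- TAB. Again the banded groups stood above sham, and CHIP-/- above wild type, without overlap. Lyz2 rose by 0.94 in wild type (SE 0.08, adjusted p = 1.5e-08) and by 1.65 in CHIP-/- (SE 0.08, adjusted p = 3.6e-12), and its responses differed by 0.70 (SE 0.11, adjusted p = 0.00099). A dimmer probe of the same gene, well above background on 13 arrays, gave 0.22 in wild type, which did not pass, and 0.44 in CHIP-/-, which did (adjusted p = 0.00145 in the fit of all probes). That probe gave 0.20 between the genotypes after TAB and a difference of responses of 0.22, and neither passed (adjusted p = 0.269 and 0.507). Lyz1, the neighbouring lysozyme gene, rose by 0.81 in wild type and 1.37 in CHIP-/- (SE 0.09 each). The 2 genes are near copies, and a probe of one may read the transcript of the other.

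Lgals3, the gene of galectin-3, a sugar-binding protein that activated macrophages secrete, rose by 0.60 in wild type (SE 0.10, adjusted p = 7.5e-05) and 1.11 in CHIP-/- (SE 0.10, adjusted p = 8.5e-09). Its arrays went from -1.96 to -1.61 in WT sham to -1.27 to -1.14 in WT TAB, and from -1.82 to -1.55 in CHIP-/- sham to -0.90 to -0.34 in CHIP-/- TAB. Its responses differed by 0.51 (adjusted p = 0.04), a call that ended on leaving out any one of 8 arrays, with values of 0.43 to 0.50 (WT sham 2 or 4, CHIP-/- sham 2 or 3, WT TAB 1 or 3, CHIP-/- TAB 1 or 3). Cd68, a late endosomal glycoprotein used as a pan-macrophage marker, was well above background on 7 arrays only and on none of the CHIP-/- sham group. It differed by 0.02 with TAB in wild type (adjusted p = 0.92). In CHIP-/- its fitted difference with TAB was 0.34 (adjusted p = 0.014), a call that ended without CHIP-/- sham replicate 3 (0.26) or CHIP-/- TAB replicate 3 (0.24). Its difference of responses, 0.32, did not pass (adjusted p = 0.27). Its floor ratio in CHIP-/- was 1.15-fold, with 2 of the CHIP-/- TAB arrays well above background. A floor ratio sets the mean heart signal of the brighter group against that of the dimmer group. Each dimmer array that lay below the lowest signal well above background on that array was first raised to it. The mean of the brighter group takes in its arrays that were not well above background. The floor ratio was not tested, has an error of its own, and is open to dye bias, since no dyes were swapped. Msr1, Gpnmb, Laptm5 and Pld4, a scavenger receptor, a glycoprotein of lipid-laden macrophages and a pair of lysosomal membrane proteins, were well above background on 0 to 3 arrays and were not tested.

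Of the chemokines, Ccl2, which recruits Ccr2-bearing monocytes, read 0.34, 0.17, 0.32 and 0.41 in WT TAB against -0.04, -0.27, -0.32 and -0.10 in WT sham. It read 1.08, 0.77, 1.59 and 0.52 in CHIP-/- TAB against -0.04, -0.07, -0.09 and 0.02 in CHIP-/- sham. The CHIP-/- TAB arrays were the highest and the most spread (SD 0.46, n = 4). Ccl2 rose by 0.49 in wild type (SE 0.15, adjusted p = 0.01) and 1.04 in CHIP-/- (SE 0.15, adjusted p = 3.6e-06), and was higher by 0.68 in CHIP-/- after TAB (adjusted p = 0.0032). The difference of responses, 0.54 with a 95% interval from 0.12 to 0.97, did not pass (adjusted p = 0.14) and did without CHIP-/- TAB replicate 4 (0.70, adjusted p = 0.0275). Ccl7, a related monocyte attractant, was well above background on 4 arrays, 3 of them CHIP-/- TAB. In CHIP-/- its fitted difference with TAB was 0.67 (SE 0.15, limma adjusted p = 0.00057), with a floor ratio of 1.38-fold. After TAB it was higher in CHIP-/- by 0.56 (SE 0.15, adjusted p = 0.014), with a floor ratio of 1.33-fold, and the groups overlapped. The difference of responses, 0.50, did not pass (adjusted p = 0.18). Ccl7 passed the filter on dim probes through CHIP-/- TAB arrays, so these tests are a description and no separate support.

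Ccr2, the receptor of Ccl2 and Ccl7, was well above background on no sham array, on 2 WT TAB arrays and on 3 CHIP-/- TAB arrays. In CHIP-/- its fitted difference with TAB was 0.74 (SE 0.14, limma adjusted p = 1e-04), with a floor ratio of 1.32-fold. Ccr2 passed the filter on dim probes only through TAB arrays, so its tests against sham are a description and no separate support. In wild type its difference of 0.34 did not pass (adjusted p = 0.059) and its groups overlapped. That difference passed on leaving out WT sham 4, WT TAB 1, CHIP-/- TAB 1 or CHIP-/- TAB 2 (0.34 to 0.43). Its difference of responses, 0.41, did not pass (adjusted p = 0.26). Its genotype difference after TAB, 0.37, did not pass (adjusted p = 0.083) and did without WT TAB 3 or CHIP-/- TAB 2 (0.46 to 0.50). Cx3cr1, the fractalkine receptor of patrolling monocytes and tissue macrophages, was well above background on 1 array at most and was not tested.

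Ccl6 and Ccl9, chemokines of the same family that macrophages make in mice, rose by similar amounts in both genotypes. Ccl6 read 0.72, 0.59, 0.79 and 0.04 in WT sham and 1.56, 1.44, 1.38 and 1.21 in WT TAB. In CHIP-/- it read 0.65, 0.43, 0.34 and 0.56 after sham and 1.01, 1.70, 1.33 and 1.33 after TAB. Both banded groups lay above both sham groups and overlapped each other. Ccl6 rose by 0.86 in wild type (SE 0.14, adjusted p = 4e-05) and 0.85 in CHIP-/- (SE 0.14, adjusted p = 2.6e-05); the difference of responses was -0.02, with a 95% interval from -0.42 to 0.39. Ccl9 rose by 0.74 and 0.68, with a difference of responses of -0.06 and an interval from -0.44 to 0.32.

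Surface receptors that define macrophages differed in their response. Csf1r, the receptor for the growth factor that keeps macrophages alive, read -0.21, -0.37, -0.20 and -0.15 in WT sham and -0.28, -0.32, -0.33 and -0.35 in WT TAB, and these groups overlapped (difference -0.09, SE 0.07, adjusted p = 0.35). In CHIP-/- it read -0.25, -0.36, -0.37 and -0.41 after sham and 0.05, 0.00, 0.12 and 0.13 after TAB, where all 4 arrays lay above all 12 others. Csf1r rose 1.34-fold in CHIP-/- (log2 difference 0.42, SE 0.07, adjusted p = 3.1e-05), and its responses differed by 0.51 (SE 0.10, adjusted p = 0.0046). Its second probe, well above background on 4 arrays, gave -0.12 in wild type and 0.29 in CHIP-/-. For that probe the difference of responses, 0.41, did not pass (adjusted p = 0.08 in the limma fit of all probes). Median centring ended the call of Csf1r in CHIP-/- (0.14, adjusted p = 0.286) and that of its difference of responses, and made its difference in wild type a called fall (-0.28, adjusted p = 0.0329).

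Adgre1, the gene of an adhesion receptor by which mouse macrophages are sorted, read -0.38, -0.18, -0.25 and -0.03 in WT sham and 0.15, 0.53, 0.23 and 0.29 in WT TAB. In CHIP-/- it read -0.13, -0.48, -0.26 and -0.15 after sham and 1.23, 0.83, 1.03 and 0.86 after TAB. It rose 1.42-fold in wild type and 2.36-fold in CHIP-/-, and the responses differed by 0.73 (SE 0.15, adjusted p = 0.0052). Ms4a7, a tetraspan membrane gene of macrophages, read 0.01, 0.30, 0.38 and 0.42 in WT TAB and 1.62, 1.33, 1.48 and 1.27 in CHIP-/- TAB, and between -0.41 and -0.01 on the 8 sham arrays, where it was well above background on 1 WT and 3 CHIP-/- arrays. It rose by 0.55 (SE 0.11, adjusted p = 3e-04) and 1.52 (SE 0.11, adjusted p = 1.8e-10), and its second probe gave 0.45 and 1.35. The responses of Ms4a7 differed by 0.98 (SE 0.15, adjusted p = 0.00074), and those of its second probe by 0.90 (adjusted p = 0.0105 in the fit of all probes).

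Aif1, which encodes the calcium-binding protein Iba1, rose by 0.84 in CHIP-/- (SE 0.09, adjusted p = 1.4e-07). In wild type its difference was 0.23 (SE 0.09, adjusted p = 0.056), which passed without WT sham replicate 4 (0.33) or WT TAB replicate 1 (0.26). Its second probe, on 4 arrays, gave 0.00 and 0.31 and passed in neither genotype. For that probe the difference of responses, 0.31, did not pass (adjusted p = 0.415 in the limma fit of all probes). Cd14, the co-receptor for bacterial lipopolysaccharide, rose by 0.49 in wild type and 0.80 in CHIP-/- (SE 0.11 each), and the difference after TAB, 0.24, did not pass (adjusted p = 0.19).

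**Figure D3:**
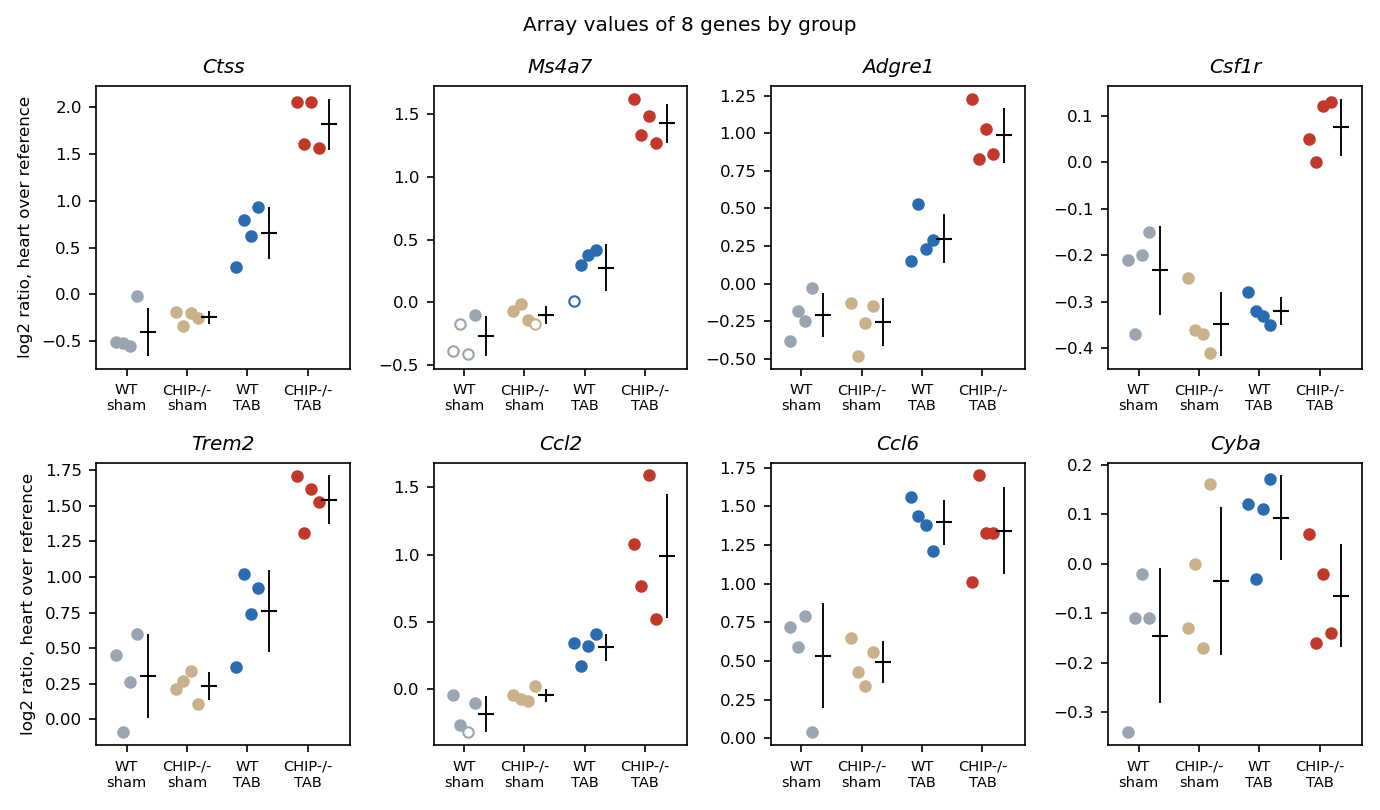
Log2 ratio of heart over reference on each array (points, open where not well above background) for 8 of the genes, with the mean and SD of each group of 4 arrays (bars), each panel on its own scale. In Ctss, Ms4a7, Adgre1 and Ccl2 the groups rise from sham to WT TAB to CHIP-/- TAB; Csf1r is higher in CHIP-/- TAB than in the other 3 groups, Ccl6 is as high in WT TAB as in CHIP-/- TAB, and Cyba overlaps across all 4.

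By the brightest probe of each, all 5 Fc receptor and adaptor genes rose in both genotypes and were higher in CHIP-/- after TAB; dimmer probes of Fcgr3, Fcgr2b and Fcer1g did not all pass. Trem2, a lipid-sensing receptor that pairs with Tyrobp, read 0.45, -0.09, 0.26 and 0.60 in WT sham and 0.37, 1.02, 0.74 and 0.92 in WT TAB, which overlapped. In CHIP-/- it read 0.21, 0.27, 0.34 and 0.11 after sham and 1.71, 1.31, 1.62 and 1.53 after TAB. Trem2 rose by 0.46 in wild type (SE 0.13, adjusted p = 0.01; 0.33 and adjusted p = 0.0556 without WT sham replicate 2) and by 1.31 in CHIP-/- (SE 0.13, adjusted p = 4.6e-08). The responses differed by 0.85 (SE 0.19, adjusted p = 0.011).

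Tyrobp, whose product carries the ITAM signalling motif for Trem2, rose by 0.47 and 0.88 (SE 0.09 each), with WT TAB arrays between -0.06 and 0.03 and CHIP-/- TAB arrays between 0.29 and 0.56. Fcer1g, the adaptor chain of the activating Fc receptors, rose by 0.54 and 0.87, and was higher in CHIP-/- after TAB by 0.35 (SE 0.11, adjusted p = 0.038). Leaving out WT TAB 1 or 3, or CHIP-/- TAB 1 or 3, ended that call (0.26 to 0.32). Fcgr3, an activating receptor for immunoglobulin G, rose by 0.46 and 0.84, and Fcgr2b, the inhibitory one, by 0.35 and 0.82. The responses of Fcgr2b differed by 0.47 (SE 0.12, adjusted p = 0.025), a call that ended without WT sham 4, WT TAB 1, WT TAB 3 or CHIP-/- TAB 3 (0.42 to 0.45). The 2 dimmer probes of Fcgr2b gave 0.11 and 0.22 in wild type, where neither passed, and 0.44 and 0.28 in CHIP-/-, where the first did. After TAB they gave 0.30 and 0.04 between the genotypes, and neither passed (adjusted p = 0.119 and 0.91). Their differences of responses, 0.33 and 0.06, did not pass (adjusted p = 0.321 and 0.91). The second probe of Fcgr3, on 10 arrays, gave 0.24 in wild type (adjusted p = 0.0916), 0.61 in CHIP-/- (adjusted p = 5.19e-05) and 0.28 between the genotypes after TAB (adjusted p = 0.106). The second probe of Fcer1g, on all 16 arrays, rose by 0.42 and 0.57 and gave 0.21 after TAB (adjusted p = 0.168). The difference of responses did not pass for Tyrobp (0.41, adjusted p = 0.068), Fcgr3 (0.38, adjusted p = 0.072) or Fcer1g (0.33, adjusted p = 0.25). It passed for Tyrobp without WT sham 2 (0.48) or CHIP-/- TAB 2 (0.45), and for Fcgr3 without WT TAB 2 (0.45) or CHIP-/- TAB 4 (0.44).

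The 3 chains of C1q, the protein that starts the classical complement pathway and that tissue macrophages make, rose together. C1qc read 0.33, 0.26, 0.27 and 0.48 in WT sham, 0.20, 0.20, 0.18 and 0.40 in CHIP-/- sham, 0.75, 0.77, 0.70 and 0.81 in WT TAB, and 1.09, 1.10, 1.24 and 0.92 in CHIP-/- TAB. The sham groups overlapped, and both banded groups stood apart from them and from each other. C1qc rose by 0.42 (SE 0.07, adjusted p = 7.5e-05) and 0.84 (SE 0.07, adjusted p = 2.7e-09), and the responses differed by 0.42 (SE 0.10, adjusted p = 0.016). C1qa rose by 0.27 and 0.60 and C1qb by 0.38 and 0.54; the value of C1qb on CHIP-/- sham replicate 3 was an outlier spot and was left out. C1qa was higher in CHIP-/- after TAB by 0.23 (adjusted p = 0.049), which ended on leaving out any of 13 arrays (0.20 to 0.25, adjusted p up to 0.132), and C1qb, at 0.21, did not pass. The difference of responses for C1qa was 0.34 (adjusted p = 0.064), and passed without CHIP-/- sham 4 (0.38) or CHIP-/- TAB 4 (0.37).

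Subunits of the phagocyte oxidase, the enzyme that makes superoxide in phagosomes, went apart. Ncf4, a cytosolic subunit, read -0.49, -0.35, -0.32 and -0.27 in WT TAB and 0.37, 0.22, 0.26 and 0.20 in CHIP-/- TAB, against -1.17 to -0.64 on the sham arrays of both genotypes. It rose by 0.56 (SE 0.09, adjusted p = 3.4e-05) and 1.10 (SE 0.09, adjusted p = 1.3e-09), and the responses differed by 0.54 (SE 0.12, adjusted p = 0.013). Cybb, the catalytic membrane subunit, rose in CHIP-/- by 0.52 (SE 0.10, adjusted p = 0.00022), with a difference of 0.10 in wild type (adjusted p = 0.46). Its difference of responses, 0.42, and its genotype difference after TAB, 0.26, did not pass (adjusted p = 0.1 and 0.12).

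Cyba, the membrane partner of Cybb, which also serves oxidases of other cells, was the only measured member that did not rise in CHIP-/-. In CHIP-/- it read -0.13, 0.00, -0.17 and 0.16 after sham and 0.06, -0.16, -0.02 and -0.14 after TAB (difference -0.03, SE 0.09, adjusted p = 0.82). In wild type it read -0.34, -0.11, -0.02 and -0.11 after sham and 0.12, -0.03, 0.11 and 0.17 after TAB, a difference of 0.24 (SE 0.09) that lay just outside the threshold. It passed without WT sham 3, CHIP-/- sham 4, WT TAB 2 or CHIP-/- TAB 1 (0.24 to 0.28). Its groups overlapped in every comparison. Ncf1, the organizing cytosolic subunit, was well above background on no array.

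Of 8 surface and cytoskeletal genes shared more widely among leukocytes 5 were measured; 4 rose in wild type and 5 in CHIP-/-. Cd52, a small glycoprotein of lymphocytes and myeloid cells, read -0.20, 0.01, 0.03 and 0.06 in WT TAB and 1.10, 0.72, 1.31 and 0.69 in CHIP-/- TAB, against -0.73 to -0.21 on the 8 sham arrays. It rose 1.32-fold in wild type (log2 SE 0.12, adjusted p = 0.011) and 2.62-fold in CHIP-/- (log2 SE 0.12, adjusted p = 3.7e-09), and the responses differed by 0.98 (SE 0.17, adjusted p = 0.0018). Ptprc, which encodes the pan-leukocyte phosphatase CD45, rose by 0.32 and 0.57 and was higher in CHIP-/- after TAB by 0.36 (SE 0.08, adjusted p = 0.0057). Coro1a and Lcp1, which organize actin in blood cells, rose by 0.41 and 0.40 in wild type and by 0.64 and 0.58 in CHIP-/-. Coro1a was higher in CHIP-/- after TAB by 0.34 (adjusted p = 0.013; 0.30 and adjusted p = 0.0539 without CHIP-/- TAB replicate 1), and Lcp1, at 0.28, did not pass. The second probe of Coro1a, on 10 arrays, gave 0.33 in each genotype, 0.17 after TAB (adjusted p = 0.281) and a difference of responses of 0.00. Cd83, a glycoprotein of activated antigen-presenting cells, rose in CHIP-/- by 0.36 (SE 0.11, adjusted p = 0.0098) and was at 0.16 in wild type (adjusted p = 0.28). Its difference of responses, 0.20, and its genotype difference after TAB, 0.08, did not pass (adjusted p = 0.54 and 0.74). Itgam and Itgb2, the chains of the integrin Mac-1, and Cd53, a tetraspanin, were well above background on 0 to 3 arrays and were not tested.

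The members varied together over the 16 arrays. The correlation of a gene with the mean of the other measured members was 0.99 for Lyz2, Lyz1, Ctss and Fcgr2b, 0.98 for Adgre1, C1qc, Ncf4 and Lgals3, and lowest for Cyba (0.21), Cd68 (0.57), Cd83 (0.69), Ccl9 (0.70) and Ccl6 (0.72). Among all other features the mean of the measured members was most closely followed by Selenom (r = 0.994), Lgals1 (0.993), Limd2 (0.989), Cnn1 (0.988) and Rcn1 (0.987). Lgals1 encodes galectin-1, Cnn1 the smooth muscle protein calponin, and Rcn1 a calcium-binding protein of the endoplasmic reticulum. These correlations run over 4 groups that each shared a slide, and over a common reference, and describe the pattern sham, WT TAB, CHIP-/- TAB that many genes of banded hearts had.

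Lists of other genes with roles in macrophages followed in part. Many of these genes, the lysosomal ones among them, are also made by other cells, and their source in whole ventricle was not measured. Of 16 lysosomal enzymes and membrane proteins, all measured, 8 rose and 1 fell in wild type, 15 rose and 1 fell in CHIP-/-, and 12 were higher in CHIP-/- after TAB (median 0.29). The cathepsin gene Ctsb rose by 0.83 in CHIP-/- (SE 0.07, adjusted p = 1.8e-09) and was at 0.07 in wild type (adjusted p = 0.44). Psap, the precursor of the saposins, fell by 0.83 in wild type and by 0.64 in CHIP-/- (SE 0.05 each).

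The 5 measured MHC class II genes rose in CHIP-/-: H2-Aa by 0.66, H2-Ab1 by 0.88, H2-Eb1 by 0.83, H2-DMb1 by 1.02 and the invariant chain gene Cd74 by 1.14. In wild type H2-Ab1 and H2-DMb1 rose, by 0.58 and 0.47, and these were the ones that were higher in CHIP-/- after TAB. Among 7 measured of 18 other chemokines and receptors, 1 rose in wild type (Cx3cl1, by 0.43) and 4 rose and 2 fell in CHIP-/-. Ccl8 and Ccl12, further ligands of monocyte receptors, rose there by 1.60 and 0.95, Cxcl12 fell by 0.35 and its scavenger receptor Ackr3 by 0.59.

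Of the ITAM and integrin signalling genes 11 of 17 were measured, and 5 rose in wild type and 10 in CHIP-/-. Sirpa, a receptor that restrains engulfment, rose by 0.72 in CHIP-/-, as did Clec7a, a receptor for fungal glucans, by 0.64 (SE 0.11) and the adaptor gene Fyb by 0.64 (SE 0.13), while the kinase gene Syk was at -0.09 in both genotypes and did not pass. Of 8 measured of 14 other Fc and engulfment receptors, 0 passed in wild type, with differences from -0.11 to 0.26. An unadjusted limma p under 0.05 was met by 2 of the 8, against 4924 of all 11058 features. In CHIP-/- 4 rose and 2 fell, with Fcgr1, the high-affinity receptor for immunoglobulin G, up by 1.02 and Cd36, a fatty acid and scavenger receptor also made by heart muscle and endothelium, down by 0.37. Of 10 measured of 15 growth factors and lineage regulators, 5 rose in wild type and 6 in CHIP-/-, and 2 were higher in CHIP-/- after TAB, Irf8 and Csf2rb. Irf8, a transcription factor of monocytes and macrophages, rose by 0.41 in wild type and by 0.72 in CHIP-/-. The ligand gene Csf1 did not pass in CHIP-/- (-0.04), and Il34, the other ligand of Csf1r, rose by 0.38 and 0.46.

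Among 8 measured of 15 innate sensors and cytokines, 3 rose in wild type, and 6 rose and 1 fell in CHIP-/-. Spp1, which encodes the secreted protein osteopontin, rose by 0.93 (SE 0.21, adjusted p = 0.0016) and 2.47 (SE 0.21, adjusted p = 3.8e-09), and the pattern receptor genes Tlr2 and Tlr4 both rose by 0.52 in CHIP-/-. Of the GTPases that switch the oxidase on, Rac1 rose by 0.37 in wild type and 0.36 in CHIP-/-, and Rac2 was at -0.05 and 0.11.

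Genes of resident and alternatively activated macrophages differed from this. Of 10 measured of 14, 5 rose and 1 fell in wild type, 4 rose and 1 fell in CHIP-/-, and after TAB 1 was higher in CHIP-/- and 3 were lower, with a median of -0.28. After sham 9 of these 10 genes had values below those of wild type in CHIP-/- (median -0.17), while 5122 of all 11058 features had values above. An unadjusted limma p under 0.05 was met by 6 of the 10, against 885 of the 11058 features. After adjustment 0 of the 10 passed, and the median difference of responses was -0.01. Cd163, the haptoglobin-haemoglobin receptor, and Lyve1, a hyaluronan receptor, rose in wild type by 0.39 and 0.41 and were at 0.02 and 0.03 in CHIP-/-. After TAB they were lower in CHIP-/- by -0.64 (SE 0.09, adjusted p = 0.00011) and -0.53 (SE 0.12, adjusted p = 0.0035), and Cbr2 by -0.38 (SE 0.07, adjusted p = 0.00062). Their differences of responses, -0.37, -0.38 and -0.22, did not pass (adjusted p from 0.11 to 0.2). Lyve1 is also made by lymphatic endothelium.

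**Figure D4:**
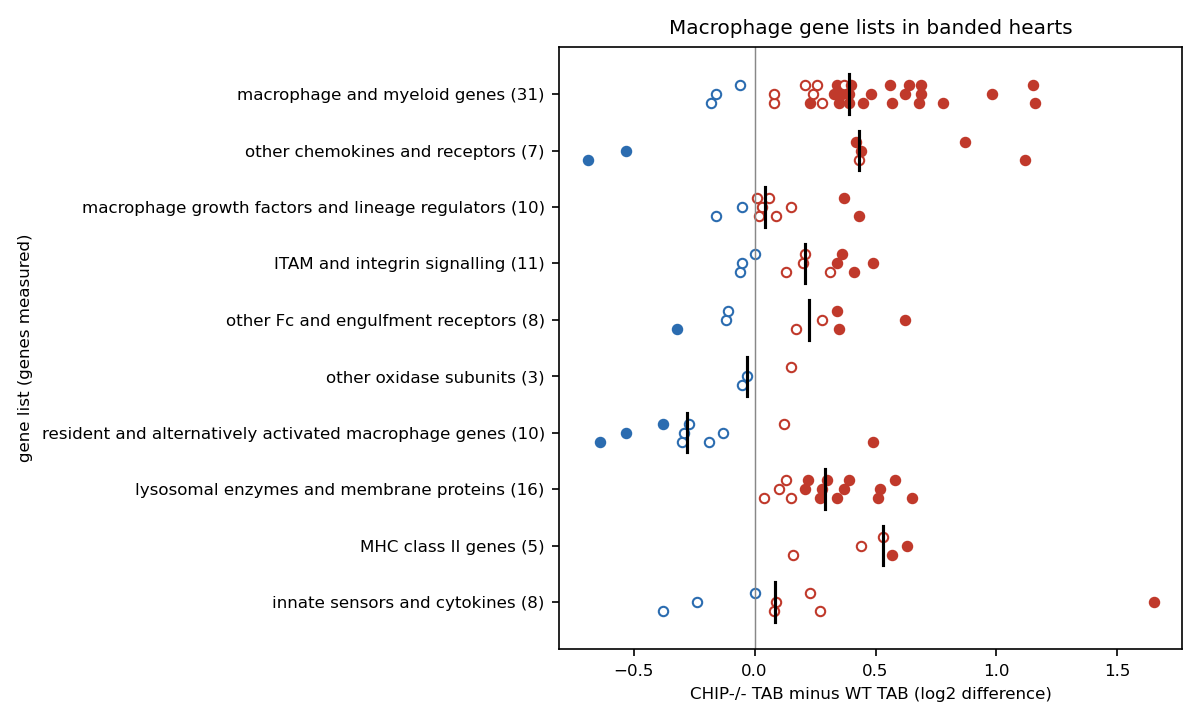
CHIP-/- TAB minus WT TAB, as a log2 difference, for each measured gene (points, filled at an adjusted p under 0.05, red above 0 and blue below) of the macrophage and myeloid genes and of 9 other lists, with the median of each list (bar). The 31 macrophage and myeloid genes have a median of 0.39 and the 16 lysosomal genes 0.29, while the resident and alternatively activated genes have a median of -0.28.

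Markers of other cell types moved with the same groups. Fibroblast markers rose in 7 of 10 in wild type and 9 of 10 in CHIP-/- (medians 0.66 and 1.59), led by Postn, the gene of the matrix protein periostin, and Col3a1. Their array means ran from -1.42 to -0.95 in WT sham, -1.68 to -1.29 in CHIP-/- sham, -0.96 to -0.24 in WT TAB and 0.01 to 0.23 in CHIP-/- TAB. Postn rose by 2.31 and 4.67 and Col3a1 by 1.22 and 3.29. Cardiomyocyte markers fell in 5 of 8 and 7 of 8, 1 rose in CHIP-/-, and Pln and Myh6 fell by 0.86 and 0.48 in wild type and by 1.24 and 0.76 in CHIP-/-. Their array means were 3.69 to 3.81 in WT sham, 3.28 to 3.74 in CHIP-/- sham, 3.36 to 3.69 in WT TAB and 3.15 to 3.33 in CHIP-/- TAB. Endothelial markers rose in 7 of 10 in wild type and 4 of 10 in CHIP-/-, with 1 lower in each (medians 0.45 and 0.13). Of 9 mural cell markers (smooth muscle, pericytes) 8 were higher and 1 lower with TAB in wild type, and 6 higher and 2 lower in CHIP-/-. The part of these shifts in the macrophage and myeloid results was not tested.

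Of other blood cells little was measured. None of 14 lymphocyte markers passed the filter on dim probes, 1 of 8 dendritic cell markers did (Zbtb46, at 0.16 and 0.04, neither called), and 2 of 6 mast cell markers (Cma1 and Mcpt4) stayed between -0.06 and 0.07 with no call. Of 12 neutrophil markers 4 were measured. S100a9, a calcium-binding protein of neutrophils and monocytes, rose by 0.47 in wild type and 0.69 in CHIP-/-, Mpo rose by 0.42 in CHIP-/-, and Ltf and Ngp passed in neither genotype. The array means of these 4 markers were -2.57 to -2.26 in WT sham, -2.41 to -2.14 in CHIP-/- sham, -2.33 to -2.09 in WT TAB and -1.96 to -1.79 in CHIP-/- TAB. Between the genotypes 1 of the 4 was called higher in CHIP-/- after TAB, where 5.25% of all features were, with differences from 0.08 to 0.67. After sham 0 of the 4 were called, with differences from -0.16 to 0.45. The part of the neutrophil markers in the results was not tested. Among the members that commonly define macrophages, Csf1r, Adgre1, Aif1, Cd14, C1qa and C1qc were well above background on all 16 arrays, sham included, while Cx3cr1, Itgam and Msr1 were on 1 array at most; signal over background also chose the measured genes, so this is a description and no separate check of their label.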

How the data were processed

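RNA of 16 heart ventricle samples was measured on 16 two-colour Agilent arrays, 1 per sample. The deposited scanner files hold, per the file headers, spot intensity (mean signal and local median background) from Feature Extraction 9.1.3.1 and its log10 ratios of Cy5 over Cy3. A deposited series table gives log2 ratios, used only as an alternative; it held 14322 probes. The CHIP-/- TAB files, as deposited, give mean signals to 3 significant digits.

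Here background was corrected with normexp (offset 50) and ratios were normalized by loess within arrays in limma 3.58.1 (R 4.3.3). Control spots had weight 0, outlier spots were left out, and spots of a probe were averaged. The brightest probe that passed stood for its gene. Means of the 4 groups were fitted on all 16 arrays, with an intensity trend in the spread. With 4 arrays a group, their number limits the precision.

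Names came from RefSeq tables by accession (22951 probes), symbol (6659) or synonym (3109), and 8455 probes kept the name in the file. The members and lists were chosen with earlier results of these data known. All members are accounted for; of each other list the 2 genes with the largest called differences, and lists of 5 or fewer measured genes in full, were to be named, though some are not reported here; Csf1, Il34, Syk and other genes beyond these were added after their values were seen. Alternatives changed the background correction, normalization, filter, probe rule, model and arrays used.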

Additional observations from a re-analysis of the deposited data

Results flagged for a closer look

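Of 124 groups of 4 arrays (31 genes by 4 groups), 5 held an array whose gap to its nearest neighbour took up more of the range of the group than Dixon's 95% critical value allows, a limit that chance meets in about 1 in 20 groups. These were Cd68 on WT TAB replicate 4 (0.12), Ctss on WT sham replicate 4 (-0.02), Fcgr3 on WT TAB replicate 2 (0.44) and on CHIP-/- TAB replicate 4 (0.41), and C1qc on CHIP-/- sham replicate 4 (0.40). WT sham replicate 4 and CHIP-/- sham replicate 4 also carried Y-linked transcripts.

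The response to TAB differed between the genotypes, by limma's interaction term and the brightest probe of each gene, in 13 genes. The difference of log2 responses was 1.00 for Ctss, 0.98 for Ms4a7, 0.98 for Cd52, 0.85 for Trem2, 0.73 for Adgre1, 0.70 for Lyz2, 0.61 for Aif1, 0.56 for Lyz1, 0.54 for Ncf4, 0.51 for Csf1r, 0.51 for Lgals3, 0.47 for Fcgr2b and 0.42 for C1qc.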

How the results depend on the processing

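There were 34 other settings, 16 of them leaving out 1 array. Single genes were followed in at most 33 of them (Ccl7 in at most 26), as every probe a feature gave no value per gene. The comparison after sham was not followed for single genes. Within these limits no call turned its direction, and 24 uncalled values did, in 10 comparisons of 7 genes (Cd68, Cd83, Ccl9, C1qb, Cyba, Ccl6 and Csf1r). With median centring 11 genes rose in wild type and 5 responses differed, with medians of 0.20 in wild type, 0.52 in CHIP-/- and 0.34 for the difference of responses. Medians in wild type, in CHIP-/-, after TAB and for the difference of responses were 0.79, 1.35, 0.63 and 0.60 with Feature Extraction log ratios, 0.79, 1.35, 0.64 and 0.62 in the authors' deposited series table, and 0.64, 1.19, 0.58 and 0.65 with normexp offset 0. On each array the deposited series table correlated at 0.9998 or more with the Feature Extraction log ratios centred per probe. Those settings are thus not separate checks. The median in CHIP-/- was 0.73 with the mean of all probes and with every probe a feature. Leaving out sham arrays was chosen after seeing the data: without the 3 with Y-linked transcripts 3 responses differed, and without these and the 3 with high Myl7 12 genes rose in wild type and 0 responses differed.

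Leaving out 1 array gave 22 to 25 genes called in wild type, 28 to 30 in CHIP-/-, 0 after sham, 17 to 21 after TAB and 11 to 16 for the responses. The medians ran from 0.40 to 0.48, 0.79 to 0.85, -0.03 to 0.03, 0.34 to 0.42 and 0.35 to 0.46. With the replicate number as a block the counts were 23, 30, 0, 19 and 12 and the medians 0.42, 0.84, 0.00, 0.39 and 0.42. Same-numbered arrays correlated between -0.19 and 0.19 over 24 pairs, and 8 of 16 arrays correlated best with their own number. These values do not settle whether the numbers pair the samples. The numbers were not taken to do so because nothing in the labels says it.

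Of all features 3948, 5223, 4, 1275 and 601 were called in the 5 comparisons. Counts moved by over 1.5 times with median centring (22 after sham, 439 after TAB, 181 for the responses), the heart channel alone (13 after sham), Feature Extraction log ratios, normexp offset 0 and the deposited series table (2 after sham in each), array weights (34 after sham) and only the groups compared (41 after sham), and for the responses with no filter (388) and no intensity trend (389). Without the arrays with high Myl7 they were 2582 in wild type and 18 after sham, without those with Y-linked transcripts 98 for the responses and 8 after sham, and without both 1242 in wild type, 2567 in CHIP-/- and 4 for the responses. Leaving out 1 array gave 345 to 789 for the responses, 809 to 1382 after TAB and 2 to 15 after sham. The cause of these moves was not tested. Signal over background limits Ccl7, Ccr2, Cd68, Ms4a7 and Cybb, which were well above background on 4, 5, 7, 11 and 11 arrays.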
